A study of Mus musculus with 150 samples.

Results

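Surfactant is the mixture of phospholipid and protein that lowers surface tension in the alveoli, and alveolar type 2 cells make it, store it in lamellar bodies and take it up again. The 10 genes described here encode 4 surfactant proteins (Sftpa1, Sftpb, Sftpc and Sftpd) and 6 further products by which alveolar type 2 cells are recognised (Abca3, Lpcat1, Slc34a2, Lamp3, Napsa and Lyz2). What was measured is the copy number of the DNA around them in single lung tumour cells, not their expression. Each gene was chosen by name, and its value is that of the genome bin whose gene column lists it. All 10 genes were found, each in 1 bin, and because Sftpa1 and Sftpd share a bin they occupied 9 of the 5331 bins, on 8 chromosomes.

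Genomic DNA had been sequenced from 150 cells of 3 tumours, T1, T7 and T9, microdissected from 1 mouse 30 weeks after induction, 50 cells per tumour. The groups were the tumours and they shared the animal, its alleles and its time point. The labels call the animal KP and list C57BL/6 x Sv129 mice that carry Trp53flox/flox, whose recombination removes parts of the tumour suppressor gene, and the recombinase-dependent reporters Rosa26LSL-tdTomato and Rosa26LSL-Luciferase. As inducing viruses they list AdSPC-Cre, in which the promoter of the surfactant protein C gene drives Cre, and AdCMV-FlpO, without saying which one this mouse received. As source the labels name AT2 cells, short for alveolar type 2, which DNA cannot check, since the markers of that cell type are defined by their RNA.

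After filters on depth and noise, 145 cells were used, 47 of T1, 48 of T7 and 50 of T9. The median cell of T1 had 94.0 Mb of sequenced bases, that of T7 69.3 Mb and that of T9 56.7 Mb, and the noise between neighbouring bins had a median of 0.19, 0.15 and 0.13 on the log2 scale in the same order. A level is a log2 ratio relative to the autosomal median of the same cell, so a doubling of the whole genome would not appear in it. Every chromosome of every cell was divided into segments of at least 10 Mb, and a gene was called gained where its segment had a mean of at least 0.32, the log2 of 2.5 over 2 copies, and lost where that mean was -0.42 (1.5 over 2 copies) or less. A gene met the criterion in a tumour when at least 20% of the tumour's cells carried the call. Each tumour is 1 sample, and its cells are not replicates of a condition, so the tumours were set side by side without a test. Intervals on shares of cells are exact Clopper-Pearson 95% intervals, and they cover counting error only. Beside a count of 0 the share that 3 cells would make is given as well, an approximate one-sided limit that is lower than the end of the exact interval.

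The genes lie as follows on GRCm38, with gene positions from RefSeq GRCm38.p6, and each lies whole within its bin. Sftpa1 (chr14:41131788-41136373) and Sftpd (chr14:41172212-41185198) are 35.8 kb apart in the bin chr14:40778926-41279895, and Sftpc (chr14:70520941-70524081) lies 29.3 Mb beyond Sftpd in the bin chr14:70414387-70913358. Sftpb (chr6:72304610-72314373) is in the bin chr6:72217299-72716895 and Lyz2 (chr10:117277541-117282272) in the bin chr10:117115639-117614873. Lpcat1 (chr13:73467231-73516420) is in the bin chr13:73428567-73930436. The others are Abca3 (chr17:24351921-24410204), Slc34a2 (chr5:53049353-53071664), Lamp3 (chr16:19653381-19706365) and Napsa (chr7:44572445-44586846). The bins were 499 to 505 kb long and listed between 8 and 36 genes each, so a level belongs to a neighbourhood and not to 1 gene. Lyz2 shares its bin with Lyz1, the second lysozyme gene of the mouse, and Sftpc shares its bin with Lgi3.

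Of these genes, 3 met the criterion in at least 1 tumour: Sftpb, Lyz2 and Lpcat1. Their promoters are shown to place the sequence beside the copy number of the bin that holds it. They come from RefSeq GRCm38.p6, run from 250 bases before to 50 bases after the gene's start, and are written 5′ to 3′ on the gene's strand. They cover chr6:72304360-72304659 (plus strand) for Sftpb, chr10:117282223-117282522 (minus strand) for Lyz2 and chr13:73466981-73467280 (plus strand) for Lpcat1. Capitals mark CTCAAG, the core letters of sites for NKX2-1, a lung transcription factor.
Sftpb: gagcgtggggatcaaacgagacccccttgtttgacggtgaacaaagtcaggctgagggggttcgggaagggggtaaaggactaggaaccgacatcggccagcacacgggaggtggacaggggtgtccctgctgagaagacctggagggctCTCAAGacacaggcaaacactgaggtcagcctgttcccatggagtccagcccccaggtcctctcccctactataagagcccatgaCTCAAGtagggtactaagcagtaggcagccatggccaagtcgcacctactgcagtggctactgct
Lyz2: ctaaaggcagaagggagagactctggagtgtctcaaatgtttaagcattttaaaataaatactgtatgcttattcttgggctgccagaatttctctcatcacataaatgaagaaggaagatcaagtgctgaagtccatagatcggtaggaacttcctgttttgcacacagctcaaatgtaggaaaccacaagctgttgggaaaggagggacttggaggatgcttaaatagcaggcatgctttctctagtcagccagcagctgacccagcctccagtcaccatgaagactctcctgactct
Lpcat1: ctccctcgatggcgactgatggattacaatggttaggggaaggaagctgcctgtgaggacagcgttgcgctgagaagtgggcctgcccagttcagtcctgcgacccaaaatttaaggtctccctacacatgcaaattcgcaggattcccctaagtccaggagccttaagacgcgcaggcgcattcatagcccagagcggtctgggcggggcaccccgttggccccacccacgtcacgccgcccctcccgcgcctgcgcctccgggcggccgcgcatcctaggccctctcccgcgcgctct

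In the Sftpb promoter CTCAAG begins at positions -100 and -15 relative to the gene's start. Searched on both strands, CTCAAG was found in 15.9% of the 32851 promoters of this length, the forkhead core TGTTTAC in 3.65% and TATAAA in 13.6%, and no 2 matches overlapped in these genes. The Lyz2 and Lpcat1 windows held none of the 3 motifs. Among the other genes with a promoter in the table, Sftpa1 held CTCAAG and TATAAA, Lamp3 held TGTTTAC, and Abca3 and Slc34a2 held none of the 3. Sftpc, Sftpd and Napsa are named only. A match is a description of letters and not a binding site.

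In T1, 3 of the 10 genes met the criterion, Sftpb as a gain and Lyz2 and Lpcat1 as losses, beside 28.3% of the 4806 autosomal bins. The bins that met it as gains were 8.22% and as losses 20.1% of the autosomal bins of T1. In T7, 2 of the 10 genes met it, Sftpb gained and Lyz2 lost, beside 16.1% of the autosomal bins, 13.6% gained and 2.52% lost. In T9 only Sftpb met it, as a gain, beside 11.3% of the bins, 7.07% gained and 4.2% lost. These total shares of the 10 genes are close to those of the genome, so as a group the genes did not stand out in number from other bins. The median level over the 10 genes was 0.13 in T1, beside 0.11 over all autosomal bins. In T7 these medians were -0.04 over the genes and -0.03 over the bins, and in T9 they were 0.01 and 0.02.

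**Figure D1:**
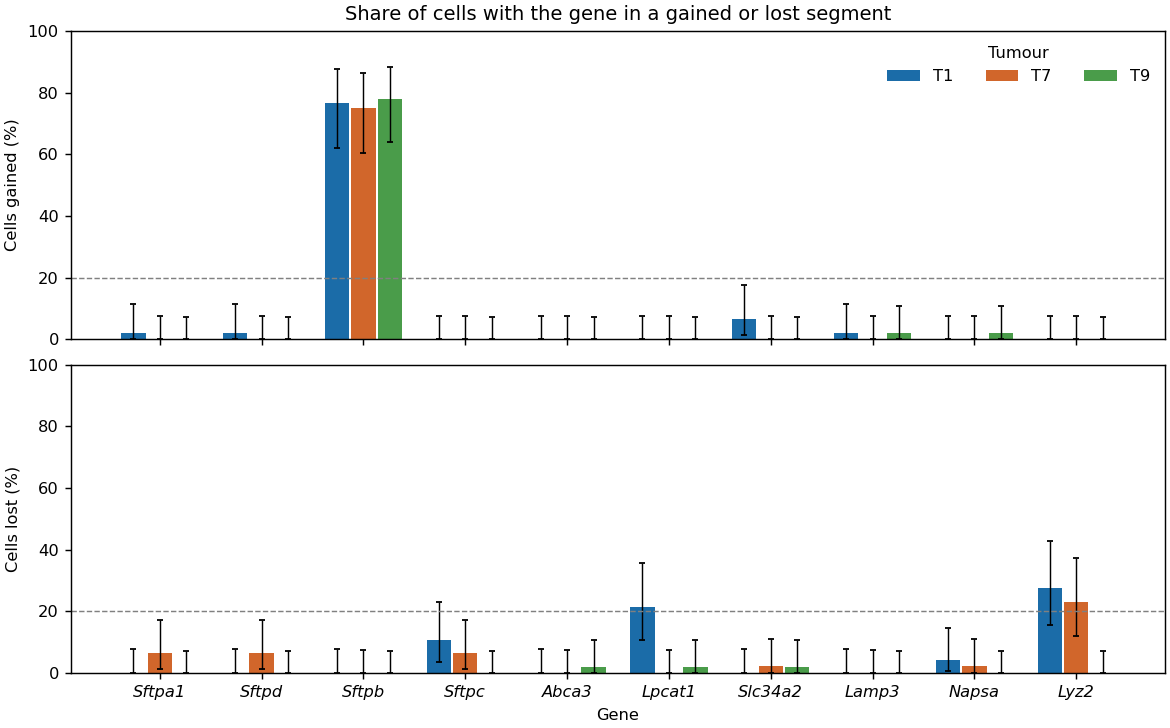
Percent of each tumour's cells with the gene in a gained segment (upper panel) or a lost segment (lower panel), for 47 T1, 48 T7 and 50 T9 cells. Bars are shares, error bars give their exact Clopper-Pearson 95% limits, and the dashed line is the criterion of 20%. Sftpb is gained in 75 to 78% of the cells of every tumour, and losses past the line are those of Lyz2 in T1 and T7 and of Lpcat1 in T1.

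With the settings above, Sftpb was the gene with the highest median level in all 3 tumours. It encodes surfactant protein B, the small hydrophobic protein without which lamellar bodies and a working surface film do not form. The segment level of Sftpb was 0.08 in the lowest T1 cell, 0.44 in the median cell and 0.79 in the highest (SD 0.14). In T7 it was -0.01, 0.38 and 0.81 (lowest, median and highest cell, SD 0.13), and in T9 it was -0.36, 0.42 and 1.27 (SD 0.19). The ranges of the tumours overlapped, and their medians lay within 1 SD of each other. The call of a gain at Sftpb was made for 36 of the 47 cells in T1 (76.6%, interval 62.0 to 87.7), 36 of 48 in T7 (75%, 60.4 to 86.4) and 39 of 50 in T9 (78%, 64.0 to 88.5).

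Of the cells not called gained at Sftpb, 8 of 11 in T1, 8 of 12 in T7 and 10 of 11 in T9 had a segment level between 0.20 and 0.32. The median of all cells not called gained was 0.21 in T1, farther under the threshold than the 0.29 of T7 and 0.27 of T9. No cell of any tumour was called lost there. Gained T1 cells had a median level of 0.48, gained T7 cells 0.41 and gained T9 cells 0.44, all under 0.58, the log2 of 3 over 2 copies. The bin of Sftpb alone had medians of 0.38, 0.41 and 0.43 in T1, T7 and T9, from a median of 27.6, 16.7 and 13.9 kb of sequence per cell. It stood above the median of the 10 bins on each side by only 0.03, 0.08 and 0.06, and 83.6%, 13.2% and 23.7% of autosomal bins departed at least as far from their own surroundings. Under stricter thresholds of 0.45 and -0.70 the gain was called for 48.9% of cells in T1, 18.75% in T7 and 36% in T9, so T7 no longer met the criterion. A second ratio was computed from the deposited depth, each bin shifted by its median difference from the deposited log2 ratio over all kept cells. That shift pools the 3 tumours, so the ratio from depth is not independent of the deposited ratio. With the ratio from depth the T1 median of Sftpb was 0.24. The gain was then called in 17.02% of T1 cells, under the criterion, against 58.3% of T7 and 80% of T9 cells.

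The extent of the Sftpb gain was different in each tumour. In T7, 33 of the 36 gained cells carried it on the whole of chromosome 6 and 34 from the first bin onward. In T9, 1 of 39 gained cells had the whole chromosome. The gained segment of 32 T9 cells began at chr6:69719313, which is 2.50 Mb before the bin of Sftpb, and that of 6 more began between 4.00 and 1.499 Mb before it. Sftpb in T9 thus lies near the start of the gained stretch, which in the median gained cell ran on to the end of the chromosome. In T1, 9 of 36 gained cells had the whole chromosome and 11 had a gained segment from the first bin. A further 23 of the 36 T1 cells had a segment that began 19.5 to 27.01 Mb before the Sftpb bin.

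Levels on either side of Sftpb gave the same picture without the calls. In T1 the bins on the centromeric side had a median of 0.23 and those on the far side 0.50. In T7 both sides were alike, at 0.38 and 0.39, and in T9 they differed most, at 0.03 and 0.43. Including cells whose segment was not called, a segment began within 5 Mb before the Sftpb bin in 46 of 50 T9 cells but in 0 of 47 T1 and 0 of 48 T7 cells. Gained Sftpb with a chromosome start that was not gained was found in 24 T1, 1 T7 and 37 T9 cells. The positions of these starts were looked at after the levels were known, and how exactly a start is placed was not tested.

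**Figure D2:**
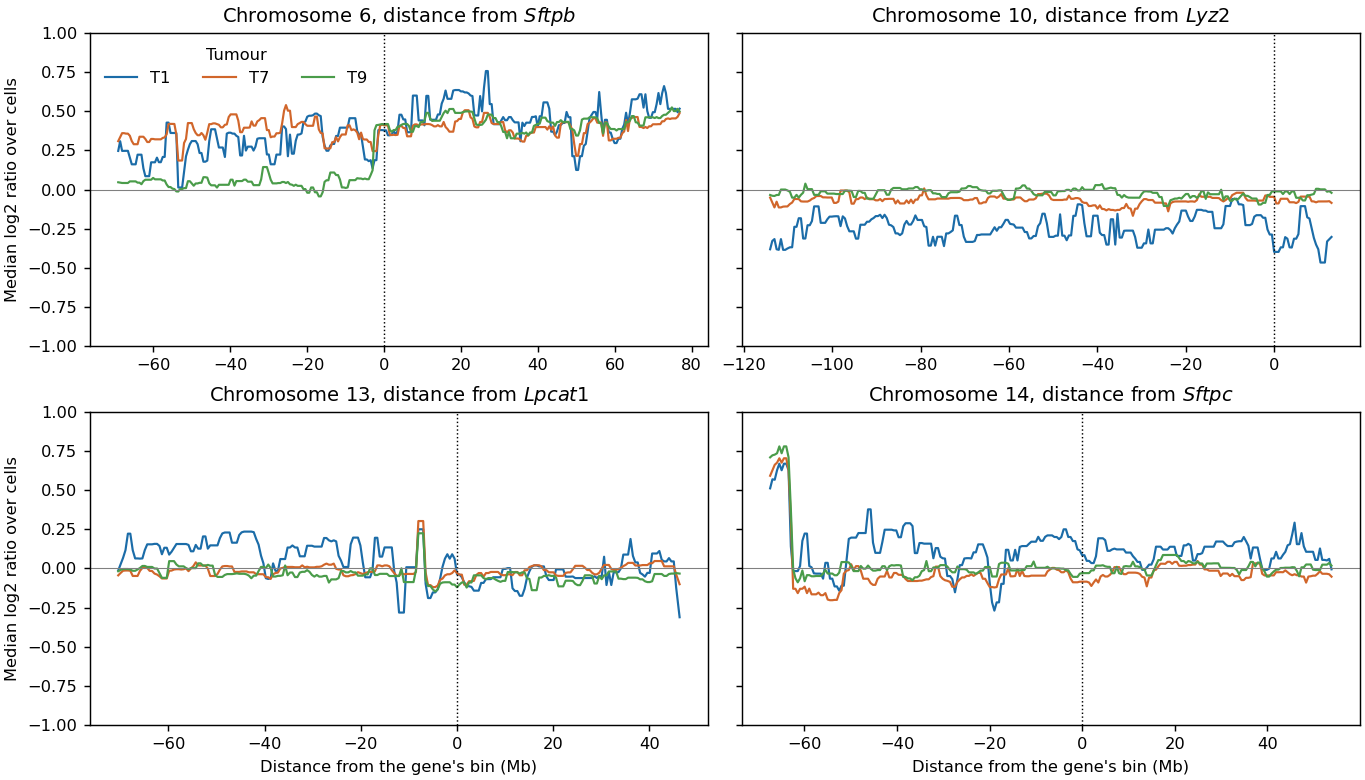
Median log2 ratio over the cells of each tumour, smoothed by a running median over 5 bins, against the distance in Mb from the bin of Sftpb, Lyz2, Lpcat1 or Sftpc on its chromosome. Dotted lines mark the gene. In T9 the level on chromosome 6 steps up just before Sftpb, while T7 is raised along the whole chromosome and T1 lies lower before Sftpb than after it.

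Surfactant protein C, encoded by Sftpc, is a very hydrophobic peptide and the product by which alveolar type 2 cells are most often defined. Its segment level in T1 was -0.70 in the lowest cell, 0.15 in the median cell and 0.24 in the highest (SD 0.24). In T7 the lowest, median and highest cells had -0.65, -0.04 and 0.17, and in T9 they had -0.25, 0.01 and 0.28. In T1, 34 of 47 cells lay above 0 at Sftpc, at a median close to the 0.11 of all autosomal bins, and T7 and T9 were near 0, with a few low cells in T1 and T7. With the ratio from depth the T1 median of Sftpc was 0.36, higher than that of Sftpb. Sftpc was then called gained in 53.2% of T1 cells, past the criterion, against 0% with the deposited ratio. Its loss was called for 5 of the 47 cells in T1 (10.6%, 3.55 to 23.1) and 3 of 48 in T7 (6.25%, 1.31 to 17.2). In T9 it was called for 0 of 50 (interval 0 to 7.11%, 3-cell limit 6%). The 5 lost T1 cells had a median of -0.51 at Sftpc.

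Sftpa1 and Sftpd encode the collectins, the carbohydrate-binding surfactant proteins A and D that take part in clearing microbes and surfactant. As they share a bin they have a single set of values. In T1 the lowest, median and highest cells had -0.16, 0.15 and 1.16, in T7 -0.65, -0.04 and 0.17, and in T9 -0.25, 0.01 and 0.28. The only gained cell was in T1 (1 of 47, 2.13%), and the lost cells were 3 of 48 in T7 (6.25%). No T9 cell was called.

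The chromosome 14 genes did not behave as a block in T1. Sftpa1 and Sftpc shared a segment in 30 of the 47 cells in T1, 44 of 48 in T7 and 47 of 50 in T9, and the Spearman correlation of their segment levels over cells reached 0.42 for T1, 0.79 for T7 and 0.93 for T9, a description that includes the cells in which they share a segment. The 3 T7 cells that lost Sftpc lost Sftpa1 and Sftpd with it, in segments of 66.4 to 111 Mb. In T1 the 5 cells that lost Sftpc had not lost Sftpa1 and Sftpd, and 1 of them was the cell with the gain at Sftpa1 and Sftpd. The lost segment in those T1 cells began 0.998 Mb before the bin of Sftpc in 4 cells and 0.499 Mb before it in 1. The segment before it was called in none of the 5, at a median of -0.15.

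Lyz2 encodes lysozyme M, a bacterial cell wall enzyme that alveolar type 2 cells and macrophages make, and it was the gene with the lowest median in T1. Its segment level in T1 was -0.70 in the lowest cell, -0.19 in the median cell and -0.04 in the highest (SD 0.20), so every T1 cell lay below its own autosomal median. In T7 the lowest, median and highest cells had -0.86, -0.04 and 0.18 (SD 0.27), and in T9 they had -0.28, 0.01 and 0.31 (SD 0.14). T7 therefore held a separate low group while its median was near 0. T9 held a shallower lower group, 17 of 50 cells between -0.28 and -0.14, with the next cell at -0.05 and none of them past the loss threshold. That group was described after the values were seen. Lower quartiles in T9 were similar at Lyz2 (-0.19), Abca3 (-0.19) and Lpcat1 (-0.21). The loss of Lyz2 was called for 13 of the 47 cells in T1 (27.7%, 15.6 to 42.6) and 11 of 48 in T7 (22.9%, 12.0 to 37.3). For T9 the count was 0 of 50 (interval 0 to 7.11%, 3-cell limit 6%).

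Among cells that lost Lyz2 the median level was -0.56 in T1 (SD 0.07) and -0.67 in T7 (SD 0.12). Both lay above -1, the log2 of 1 over 2 copies. The other cells had medians of -0.17 in T1 and -0.03 in T7. The loss took in the whole of chromosome 10 in 12 of the 13 T1 cells and in 6 of the 11 T7 cells. In the remaining 5 T7 cells it began at 5 different bins, 45.4 to 93.1 Mb before Lyz2, and ran to the chromosome's end. Of the 13 T1 cells 6 were below the tumour's median depth and 7 above its median noise, and of the 11 T7 cells 5 and 8, and the part of depth and noise in the calls was not tested. With the stricter thresholds Lyz2 was lost in 2.13% of T1 and 4.17% of T7 cells.

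The bin of Lyz2 departed from its neighbourhood in T1. That bin alone had a median of -0.55 in T1 and lay below 0 in 47 of 47 cells, while in T7 and T9 its median was -0.09 and -0.06. It lay below the median of the 10 bins on each side in 45 of 47 T1 cells, by a median of -0.28 (SD 0.17), and 6.45% of autosomal bins departed as far in T1. In T7 and T9 the departure was -0.02 and 0.01. Called from its own bin, Lyz2 was lost in 74.5% of T1 cells, in 18.75% of those of T7, under the criterion, and in 8% of those of T9. A single bin carries more noise than a segment, and departures over all autosomal bins were wider in T1 (SD 0.17) than in T7 or T9 (SD 0.08 each).

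Lpcat1 encodes the acyltransferase that makes the dipalmitoyl phosphatidylcholine of surfactant by remodelling lysophosphatidylcholine. Its segment level in T1 was -1.41 in the lowest cell, 0.01 in the median cell and 0.24 in the highest (SD 0.35), the widest spread of the 10 genes in that tumour. In T7 the lowest, median and highest cells had -0.15, -0.03 and 0.17, and in T9 they had -0.63, -0.02 and 0.24. T1 held a low group past the loss threshold, while its other cells reached from -0.34 to 0.24. The lower quartile over all T1 cells was -0.20. T7 and T9 had at most 1 cell past that threshold, with a lower quartile of -0.05 in T7 and -0.21 in T9. A lost Lpcat1 was found for 10 of the 47 cells in T1 (21.3%, 10.7 to 35.7), for 0 of 48 in T7 (interval 0 to 7.40%, 3-cell limit 6.25%) and for 1 of 50 in T9 (2%, 0.0506 to 10.6).

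In the 10 T1 cells that lost Lpcat1 the median level was -0.57, and in the other T1 cells it was 0.15. The lost segment never took the whole of chromosome 13. It began 41.2 to 48.3 Mb before the bin of Lpcat1 and ran to the end of the chromosome, a length of 88.1 to 95.2 Mb. The segment just before it was called gained in 9 of the 10 cells, with a median of 1.08 and a range of 0.12 to 2.70, so in those 9 cells a raised stretch stood next to the lost one. The call for Lpcat1 in T1 was close to the criterion: it was 17.02% with the ratio from depth and 2.13% with the stricter thresholds. From its own bin Lpcat1 was called gained in 25.5% of T1 cells and lost in 21.3%, so it met the criterion in both directions. The T1 median of Lpcat1, near 0, was -0.066 when cells were centred on the mode of their bins and -0.028 with no further centring.

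The Lpcat1 bin stood above its surroundings by 0.23 in T1 and 0.14 in T7, and by -0.01 in T9, and 13.05%, 2.83% and 78.4% of autosomal bins departed as far. In T9 its own values had an SD of 0.38 and a lowest cell at -2.15, against an SD of 0.17 in T7. The median amount of sequence in this bin was 25.97 kb per cell in T1, 12.2 kb in T7 and 9.83 kb in T9.

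**Figure D3:**
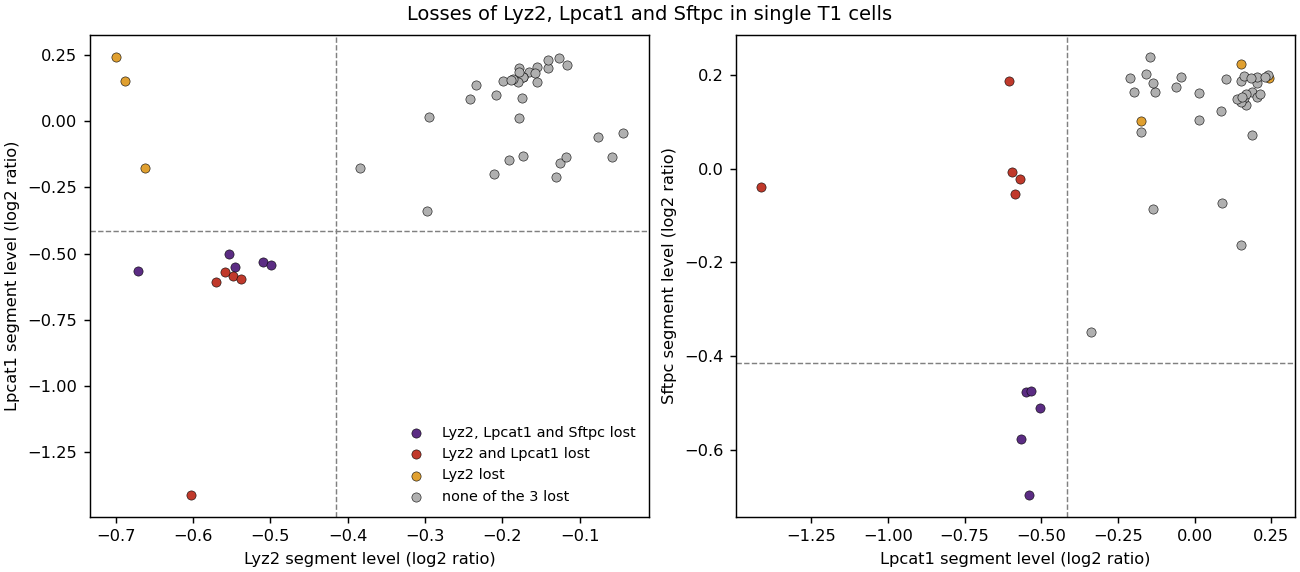
Segment levels (log2 ratio) of Lpcat1 against Lyz2 (left) and of Sftpc against Lpcat1 (right) in the 47 T1 cells, 1 point per cell, coloured by which of the 3 genes were lost. Dashed lines mark the loss threshold of -0.42. The 10 cells with Lpcat1 lost all lie among the 13 with Lyz2 lost, and the 5 with Sftpc lost all lie among those 10.

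The losses of Lyz2, Lpcat1 and Sftpc, on chromosomes 10, 13 and 14, fell in the same T1 cells. All 10 cells that lost Lpcat1 were among the 13 that lost Lyz2, and all 5 that lost Sftpc were among those 10. The nesting was noticed after the values were seen and is given as a description of this tumour. It held with looser thresholds of 0.20 and -0.25 (16, 11 and 6 cells for Lyz2, Lpcat1 and Sftpc), with the ratio from depth (15, 8 and 3 cells) and with a stricter cell filter (11, 9 and 4 cells). With windows of 5 bins on each side, 10 of 12 cells with Lpcat1 lost had Lyz2 lost too, and from single bins 9 of 10. With the stricter thresholds Lyz2 and Lpcat1 were each lost in 1 T1 cell, not the same one. In T7, 11 cells had lost Lyz2 and 3 had lost Sftpc, and no cell had lost both. So few cells cannot show whether the losses of Lyz2 and Sftpc were related in T7.

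The gain of Sftpb was found in cells with and without these losses. In T1, 9 of the 13 cells that lost Lyz2 and 8 of the 10 that lost Lpcat1 had Sftpb gained, and in T7, 8 of the 11 cells that lost Lyz2 did. A gain of Sftpb with no other call among the 10 genes was the most frequent state, with 26 of the 47 cells in T1 (55.3%), 26 of 48 in T7 (54.2%) and 36 of 50 in T9 (72%). No gene was called in 6 T1, 8 T7 and 10 T9 cells. Per cell the median number of called genes was 1 in each tumour, and up to 6 were called in a T1 cell, 5 in a T7 cell and 2 in a T9 cell. At least 1 loss was present in 14 T1, 14 T7 and 2 T9 cells.

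The remaining 4 genes met the criterion in no tumour with the settings above. Abca3 encodes the transporter that loads phospholipid into lamellar bodies. Its median segment level was 0.10 in T1 (SD 0.17), -0.04 in T7 (SD 0.06) and -0.05 in T9 (SD 0.15), and 1 T9 cell was called lost. The T1 values of Abca3 changed direction with the processing: the median was -0.13 from its own bin, where 23.4% of cells were called lost, and -0.08 in windows of 5 bins on each side. With the ratio from depth it was 0.23, and 42.6% of T1 cells were called gained. Slc34a2, the sodium-dependent phosphate transporter that recovers phosphate from surfactant, had medians of 0.17 in T1 (SD 0.11), -0.04 in T7 (SD 0.09) and 0.02 in T9 (SD 0.12). It was gained in 3 of 47 T1 cells (6.38%, 1.34 to 17.5) and lost in 1 T7 and 1 T9 cell. The T1 bin of Slc34a2 was above 0 in 44 of 47 cells while few segments passed the threshold. Its T1 median, beside 0.11 over all autosomal bins, was only 0.04 with the ratio from depth and 0.07 with centring on the mode.

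Lamp3 encodes a lysosomal membrane protein of lamellar bodies, and Napsa encodes napsin A, the aspartic protease that helps to cut surfactant protein B out of its precursor. Lamp3 had a median of -0.17 in T1 (SD 0.12), -0.03 in T7 (SD 0.05) and 0.01 in T9 (SD 0.12), and 1 T1 and 1 T9 cell were called gained. The segment lay below 0 in 46 of 47 T1 cells, none of which passed the loss threshold. Napsa had medians of -0.17 in T1 (SD 0.17), -0.05 in T7 (SD 0.10) and 0.03 in T9 (SD 0.13), with 2 T1 cells and 1 T7 cell lost and 1 T9 cell gained. In T1 the Napsa bin itself had a median of 0.01, which was 0.20 above its surroundings, and 16.6% of autosomal bins departed as far. Lamp3 in T1 was called lost, and Slc34a2 called gained, in at least 20% of cells under the looser thresholds, in windows of 5 bins on each side and from single bins. The T1 median of Lamp3 was -0.34 in those windows, -0.32 from its own bin and -0.06 with the ratio from depth.

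**Figure D4:**
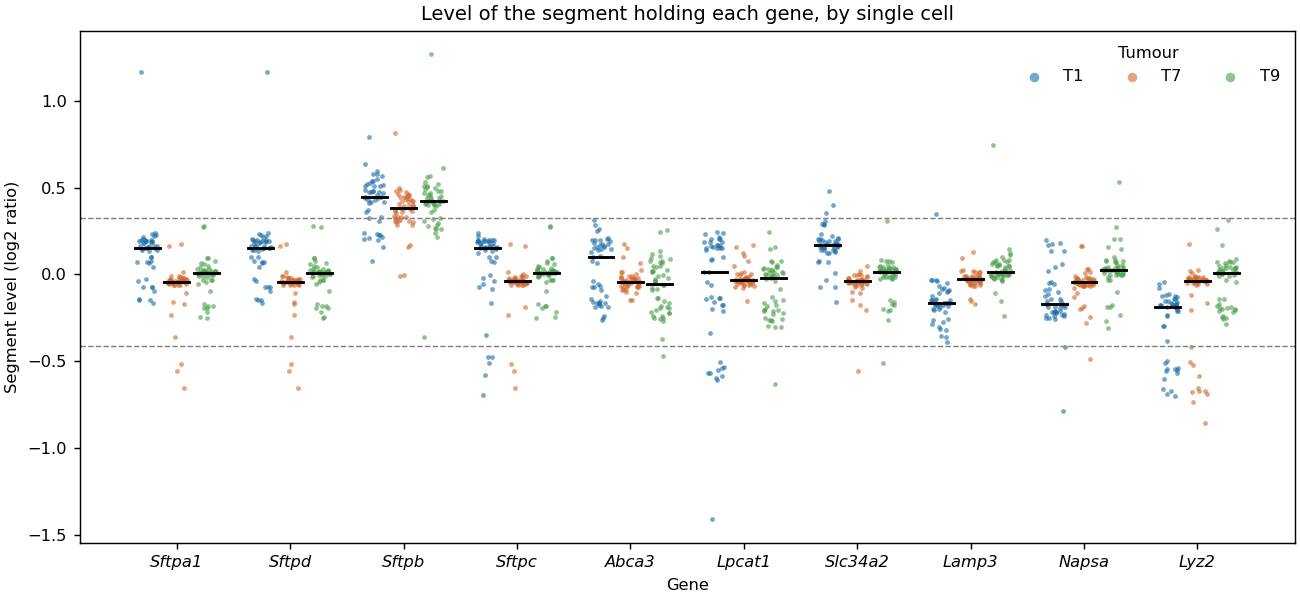
Segment level (log2 ratio relative to the cell's autosomal median) of each gene in every cell, 47 of T1, 48 of T7 and 50 of T9. Points are cells, black bars are medians, and dashed lines are the thresholds of a gain (0.32) and a loss (-0.42). With the deposited ratio shown here, the median of Sftpb stands above those of the other genes in all 3 tumours. Groups of cells past the loss threshold are seen at Lyz2 in T1 and T7 and at Lpcat1 in T1.

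Ordered by median segment level, the T1 genes ran from Sftpb (0.44) through Slc34a2 (0.17), Sftpa1, Sftpd and Sftpc (0.15 each), Abca3 (0.10) and Lpcat1 (0.01) to Lamp3 and Napsa (-0.17 each) and Lyz2 (-0.19). Only the step between Sftpb and Slc34a2 was larger than the SD over cells of both genes. This order is that of the deposited ratio, and with the ratio from depth Sftpc had a higher T1 median than Sftpb. In T7 the other 9 genes lay between -0.05 and -0.03 below Sftpb at 0.38, and in T9 between -0.05 and 0.03 below Sftpb at 0.42, so no order among those 9 exceeded the spread over cells in either tumour. The spread among genes near the autosomal level was therefore widest in T1. Among the 55 listed genes on other chromosomes, the one whose segment level was most like that of Lamp3 was Csf2rb (Spearman 0.61 over 145 cells), with 0.71 in T1, -0.09 in T7 and 0.34 in T9. Csf2rb is on chromosome 15, and other listed genes there had the same segment median and SD in T1 and T7. For Slc34a2 and 53 genes the most alike was Akap5 (0.57 over 145 cells), with 0.30 in T1, 0.22 in T7 and 0.07 in T9. No other gene reached 0.5 with a gene on another chromosome, and these correlations mix differences between tumours with those between cells, whose levels share 1 centring.

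Other genes of the surfactant system were read from 3 lists of 12 genes each. Of these 36 genes, 0 met the criterion as gains and 8 as losses in T1, 1 and 3 in T7, and 0 and 8 in T9, of which 3 are X-linked. Over the autosomal bins the shares were 8.22% gained and 20.1% lost in T1, 13.6% and 2.52% in T7, and 7.07% and 4.2% in T9. The genes of these lists share bins and chromosomes and are not independent of each other. Among 12 genes of surfactant lipid synthesis and its control, T1 had lost Scap (95.7% of cells, median -0.64), the escort of sterol-regulatory transcription factors, and Mfsd2a (95.7%, -0.69), a lysophosphatidylcholine transporter. It had also lost Elovl1 (93.6%, -0.69), a fatty acid elongase, and Chpt1 (27.7%), which makes phosphatidylcholine and lies on chromosome 10 with Lyz2. T7 had lost only Chpt1 (22.9%). T9 had lost Scap (94%, -0.62), Fasn, the fatty acid synthase (86%, -0.57), and Acly, which supplies it with acetyl-CoA (84%, -0.57). Elovl1 and Mfsd2a are on chromosome 4, and Fasn and Acly on chromosome 11. The median level over the lipid list was -0.17 in T1, where that over all autosomal bins was 0.11, and it was -0.03 in T7 and -0.11 in T9.

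Of 12 genes of surfactant processing and clearance, Ctsh, the cathepsin that trims surfactant proteins B and C, was lost in 97.9% of T1 cells (median -0.64) and 94% of T9 cells (-0.60), against 6.25% of T7 cells. Scap and Ctsh are both on chromosome 9. Ap3b1, a subunit of the adaptor that sorts cargo to lamellar bodies, was lost in 21.3% of T1 cells, on chromosome 13 with Lpcat1. No gene of this list met the criterion in T7, and its median level over the 12 genes was -0.15 for T1, -0.03 for T7 and 0.01 for T9. Of 12 other alveolar type 2 marker genes, Lyz1, in the bin of Lyz2, and Dram1, in the bin of Chpt1, were lost in the same number of cells as Lyz2 in T1 (13) and T7 (11). Hc, which encodes complement component C5, was gained in 72.9% of T7 cells (median 0.39). In T9, Cbr2, a carbonyl reductase gene in the bin of Fasn, was lost in 86% of cells, and the X-linked genes Egfl6, Bex2 and S100g in 24% each. The median level over this list was -0.02 for T1, -0.03 for T7 and 0.01 for T9.

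Of 12 marker genes of alveolar type 1 cells, the thin gas-exchange cells that type 2 cells can give rise to, 1 met the criterion as a gain and 4 as losses in T1, beside 8.22% and 20.1% of the autosomal bins. Cav1, the caveolin gene, lies on chromosome 6 before Sftpb and was gained in 29.8% of cells in T1, 72.9% in T7 and 4% in T9, beside 76.6%, 75% and 78% for Sftpb. Lost in T1 were Cldn18, a tight junction gene (95.7%), Pdpn, which encodes podoplanin (91.5%), Rtkn2 (27.7%) and Spock2 (25.5%). In T7 only Cav1 met it, as a gain beside 13.6% of the bins, and in T9 only Cldn18, lost in 94% of cells, beside 4.2% of the bins. The median level of the type 1 list was -0.09 in T1 cells, -0.03 in T7 cells and 0.01 in T9 cells.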

How the data were processed

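The 150 single-cell DNA libraries, 50 per tumour, were read from 3 tables of the whole series with 1 column per cell. Per the submitters' processing notes, alignment used BWA 0.7.17 and the build GRCm38. The deposited depth table holds the coverage signal, in mean reads per base of a bin. The deposited log2 ratio table holds a log2 value per bin and cell, centred near 0 in each cell by the authors, by a method not given in the sources used here. A deposited weight table holds a score for each bin, equal in every cell. How that score was made, how cells were sorted and amplified and what was done with wells of several cells are likewise unstated, and no doublet caller was run.

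Bins were kept when at least 80% of cells had depth and a finite ratio in them (5149 bins, 4806 autosomal and 343 on X). Kept cells had depth in at least 80% of autosomal bins and a noise, the scaled median absolute difference of neighbouring bins, of at most 0.267, which is the median plus 3 scaled median absolute deviations. This left out 3 cells of T1 and 2 of T7. Cells were centred on their autosomal median and segmented by optimal partitioning on squared residuals. Each break cost the squared noise times 3 times the natural logarithm of the kept bin number, and no segment was shorter than 5 bins or 10 Mb. The segmentation and the calls were tried on known changes planted on the residuals of real cells, and the centring was not tested. Those residuals were left by the same segmentation, so the trial cannot show how well changes in the unaltered cells are called. Its outcome is not given here. The precision of a share of cells is limited by 47 to 50 cells per tumour, and where no cell was called the limit of 3 cells was given. With 1 tumour per group no test was made.

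The 10 genes, the other lists and the settings were chosen with earlier results of these data known. All 10 genes are named with their values, genes of the other lists where they met the criterion, and the most alike gene on another chromosome where its Spearman correlation was at least 0.5. All 10 matched the RefSeq table of GRCm38.p6, and 7 had a promoter entry. Alternatives changed the thresholds, the criterion, the unit called (single bin or window), the ratio, the centring, the penalty, the weights and the cell and bin filters. A further engineered allele of the mouse is not reported here. The software was numpy 2.4.6, scipy 1.17.1, pandas 2.3.3, matplotlib 3.10.9 and numba 0.67.0 under Python 3.11.15.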

Additional observations from a re-analysis of the deposited data

How the results depend on the processing

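The number of the 10 genes that met the criterion in T1 was 3, and it was 1 with the stricter thresholds (0.45 and -0.70) and with a criterion of 50% of cells, 5 with the looser thresholds (0.20 and -0.25) and in local windows, and 6 from single bins. In T7 it was 2, and it was 0 with the stricter thresholds and 1 from single bins and with the criterion of 50%. In T9 it was 1, and no alternative moved it by more than 1.5 times. With the ratio from depth the T1 count was also 3, but the genes were Sftpc and Abca3 gained and Lyz2 lost. The Lpcat1 median in T1, 0.01 as reported, was -0.066 with centring on the mode and -0.028 with no further centring. Over 13 alternatives the criterion was met in 12 for the Sftpb gain in T1, 12 in T7 and 13 in T9, in 12 and 11 for the Lyz2 loss in T1 and T7, and in 11 for the Lpcat1 loss in T1. The cause of these differences was not tested, beyond what the thresholds set by construction. Removal of the 28 bins alike in all tumours touched none of these genes' bins. A bin of about 500 kb, read at 9.83 to 27.6 kb of sequence for the genes that met the criterion, does not resolve a change of 1 gene. No paired analysis was possible because each group is 1 tumour and the cell numbers follow the accession order and pair no cells.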
